A study of Mus musculus with 6 samples.

Results

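Complement genes were measured in castration-resistant prostate tumours of mice that had received donor marrow with or without a myeloid deletion of F10, the gene of coagulation factor X. The set held 9 complement genes chosen by symbol, of the 21718 genes in the deposited table, and it left out the C1q chains: the central component C3, its classical-pathway relative C4b, the convertase proteases C2 and Cfb, the C1 proteases C1ra and C1s1, the C1 inhibitor Serping1, the surface regulator Cd55 and the plasma regulator Cfp. All recipients were mice of 1 genetically engineered prostate tumour model, the same in both groups. They received 900 rad and then donor marrow when 6 weeks old, were castrated when 8 weeks old, and gave their tumours 16 weeks later. The F10-deleted group (3 samples, numbered 1, 3 and 4) had marrow from F10fl/fl; LysM-Cre+ donors, and the F10-intact group (3 samples, numbered likewise) had marrow from F10fl/fl donors without LysM-Cre. LysM-Cre is driven from the myeloid lysozyme locus and acts mainly in monocytes, macrophages and neutrophils, so Cre itself also differs between the groups, and non-marrow cells and any radioresistant host macrophages kept their F10. Nothing in the labels ties each sample to its own animal, and the tests therefore measure the spread between these samples.

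Complement is a cascade of plasma and membrane proteins that tags cells and debris for uptake. The classical pathway starts when C1q binds a target and its partner proteases C1r and C1s cleave C4 and C2, which together form an enzyme that splits C3. In the alternative pathway C3 and factor B form such an enzyme, and properdin holds it together. C1 inhibitor blocks C1r and C1s, and Cd55 takes the C3-splitting enzymes apart on the cell's own surface. The liver makes most complement in plasma, while fibroblasts, epithelial cells and macrophages make many components within tissues. Complement and coagulation are both cascades of serine proteases.

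Poly-A RNA was counted as reads per gene, with totals of 9237308 to 11559980 in the F10-deleted samples and 10520465 to 11821588 in the F10-intact samples. Values below are counts or CPM, the count scaled to a common library total with TMM factors. The F10 gene had 7, 4 and 9 counts in the F10-deleted samples, against 2, 6 and 17 in the F10-intact samples, so whole-tissue F10 was near the detection limit and does not check the labels. On the first principal component, which held 47.6% of the variance, F10-intact sample 4 stood apart at 79.7 while the other 5 samples lay between -32.4 and 12.3. The edgeR quasi-likelihood test called 7 of 15963 genes at an adjusted p under 0.05, which is 0.0439%, and 2 genes when replicate number was added as a blocking term.

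Of the 9 complement genes, 8 passed the filter on low counts and 0 of the 8 passed the edgeR test at an adjusted p under 0.05, where 0.0439% of all genes did. DESeq2, which called 3.05% of all genes, also called 0 of the 8, as did limma-voom and the blocked fit, which each called 0.0125%. At an unadjusted p under 0.05, edgeR gave 1 of the 8, C3, against 10.9% of all genes tested. The log2 fold changes of the 8, F10-deleted over F10-intact, were above 0 for 4 genes (47.3% of all genes tested were above 0) and below 0 for 4, with a median of -0.02, beside a median of -0.02 over all genes tested. For 7 of the 8 the values of the groups overlapped, and C3 was the exception, higher in F10-deleted tumours without overlap as were 8.99% of all genes tested (16.7% in either direction). Of the 8, 5 had a 95% interval of the log2 fold change that lay within -0.6 to 0.6. These were C4b, C1ra, C1s1, Serping1 and Cfp. The range of -0.6 to 0.6 serves description, was not a planned setting and does not test for no change. The tissue was whole tumour, in which fewer cells of a type and less RNA per cell cannot be told apart.

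**Figure D1:**
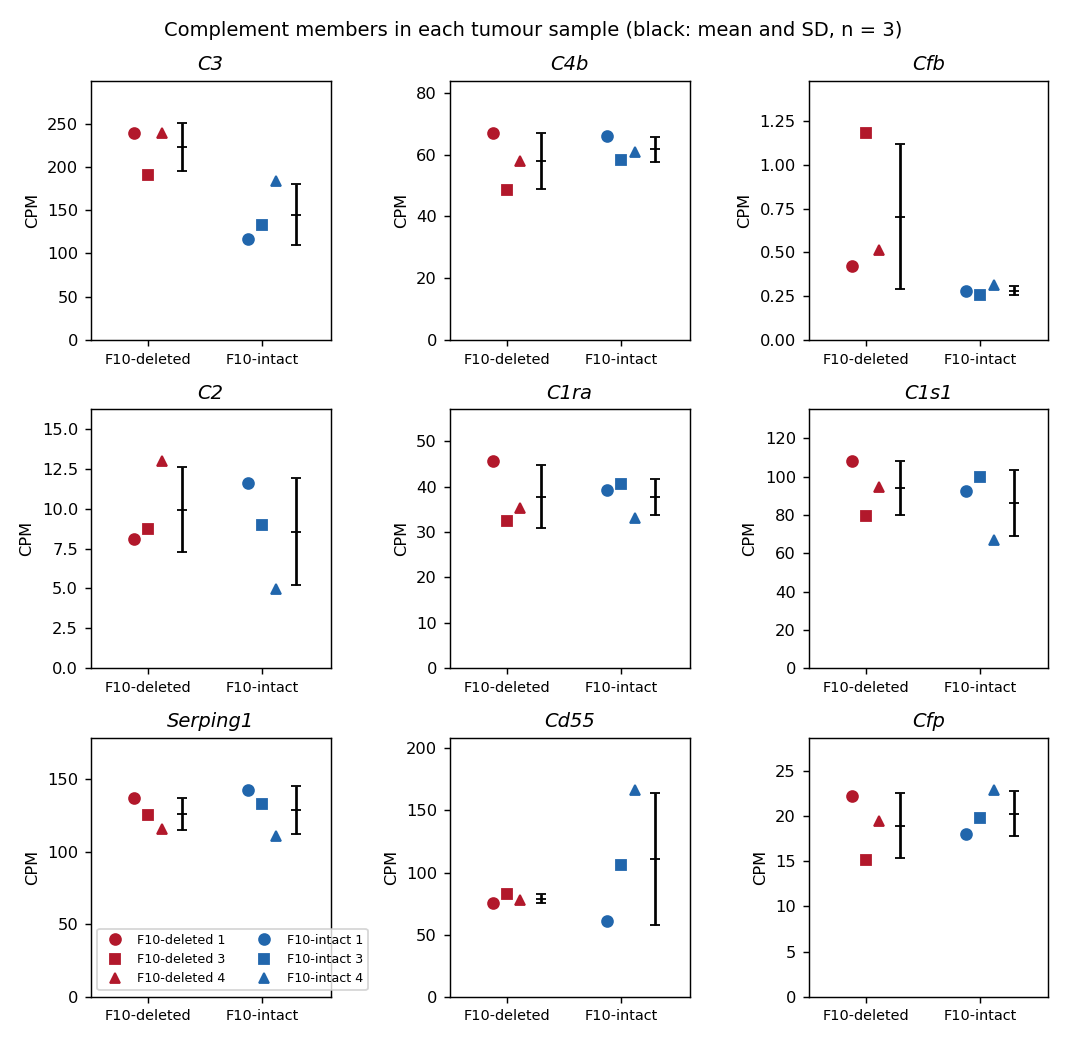
CPM of the 9 complement genes in each sample, F10-deleted in red and F10-intact in blue, with symbols for sample numbers 1, 3 and 4 and the mean and SD of each group in black. Of the 8 genes past the low-count filter, only C3 has groups that are apart, and Cd55 ranges from 60.8 to 166.7 CPM within the F10-intact samples.

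C3 is the protein on which all complement pathways converge. The gene (ENSMUSG00000024164, chromosome 17, 57203970 to 57228136, minus strand, GRCm38) had 2279, 2257 and 2811 counts in F10-deleted samples 1, 3 and 4, against 1269, 1549 and 1779 counts in F10-intact samples 1, 3 and 4. In CPM these were 239.3, 190.9 and 239.7 in the F10-deleted samples, against 117.1, 132.8 and 184.4 in the F10-intact samples. Every F10-deleted sample was above every F10-intact sample, but the gap between F10-deleted sample 3 and F10-intact sample 4 was small. The group means were 223.3 ± 28.1 CPM in F10-deleted tumours and 144.8 ± 35.2 CPM in F10-intact tumours (SD, n = 3 each). The log2 fold change was 0.63 ± 0.20 (SE, 95% interval 0.17 to 1.08), with an unadjusted edgeR p of 0.0133 and an adjusted p of 0.301, so C3 did not pass the test over all genes. With 1 sample left out it ranged between 0.53 (F10-intact sample 1 out) and 0.84 (F10-intact sample 4 out). Across all alternatives its adjusted p ranged between 0.094, with DESeq2, and 0.596, with F10-deleted sample 4 out. By exact permutation of the samples (two-sided, log2 of CPM with 0.5 added), p was 0.1, the smallest that 3 against 3 samples allow.

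Promoter sequence was at hand for 5 of the 9 genes (C3, C1ra, C1s1, Cd55 and Cfp) in RefSeq on GRCm38.p6, as windows of 300 bases that run from 250 bases before to 50 bases after the annotated start. C3 is shown because its groups were apart, and C1ra and C1s1 because they are neighbours on chromosome 6 whose products work as a pair. Capitals mark matches, on either strand, to motifs of factors known to act on inducible immune genes or of the basal promoter: TTGCNNAA for C/EBP factors, TTCNNNGAA for STAT factors, the ISRE consensus of interferon-regulatory factors, and TATAAA for the TATA box. No 2 of the marked matches overlap.
C3 (chr17:57228087-57228386, minus strand): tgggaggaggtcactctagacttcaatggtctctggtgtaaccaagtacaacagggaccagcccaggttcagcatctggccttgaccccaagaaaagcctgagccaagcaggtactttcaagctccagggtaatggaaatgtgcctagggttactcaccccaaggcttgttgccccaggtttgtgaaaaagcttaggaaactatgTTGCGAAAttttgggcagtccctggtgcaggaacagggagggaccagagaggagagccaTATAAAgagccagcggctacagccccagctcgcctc
C1ra (chr6:124512371-124512670, plus strand): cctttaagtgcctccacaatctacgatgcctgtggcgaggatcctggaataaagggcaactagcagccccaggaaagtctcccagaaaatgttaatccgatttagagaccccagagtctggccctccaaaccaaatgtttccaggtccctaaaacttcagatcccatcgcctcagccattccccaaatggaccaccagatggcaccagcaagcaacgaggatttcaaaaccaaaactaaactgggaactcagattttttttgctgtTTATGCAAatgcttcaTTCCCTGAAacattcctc
C1s1 (chr6:124542310-124542609, minus strand): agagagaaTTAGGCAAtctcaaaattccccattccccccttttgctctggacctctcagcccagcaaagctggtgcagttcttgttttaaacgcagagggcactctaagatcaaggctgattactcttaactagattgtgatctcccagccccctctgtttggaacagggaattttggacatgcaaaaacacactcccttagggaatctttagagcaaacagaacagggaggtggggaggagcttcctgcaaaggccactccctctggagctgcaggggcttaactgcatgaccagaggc
The C/EBP letters were found in all 3 of these windows, starting 45 bases before the annotated start in C3, 242 bases before it in C1s1 and 16 bases after it in C1ra, and in 10.8% of the 27025 gene promoters in the table. The STAT letters were found in C1ra alone of the 5 windows (8.47% of all promoters), starting 32 bases after the annotated start. The TATA letters were found in C3 alone (14.2%), starting 14 bases after the annotated start and not before it. The ISRE was in 0 of the 5 windows (3.49% of all promoters), and the Cd55 and Cfp windows held none of the 4 motifs. All positions are relative to the RefSeq start. For C1ra, GENCODE M21 puts the gene start at 124512405, within the 250 bases before the RefSeq start. For C1s1, RefSeq held 2 windows, and the first was used. A match describes letters and is not a binding site.

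C4b carries the same kind of reactive thioester as C3 and anchors the classical-pathway convertase. C4b (ENSMUSG00000073418, chromosome 17, 34728380 to 34743882, minus strand) had 67.1, 48.7 and 58.0 CPM in F10-deleted samples 1, 3 and 4, against 66.1, 58.2 and 61.0 CPM in F10-intact samples 1, 3 and 4. The groups overlapped, and the highest and the lowest value were both F10-deleted samples. Its log2 fold change was -0.09 ± 0.15 (SE, 95% interval -0.45 to 0.26, edgeR adjusted p = 0.887). Whether its fold change differs from that of C3 was not tested. The gene has a close copy, C4a, and 12.3% of the 120-base windows of the C4b transcript, the length of the reads, also occur in C4a transcripts. C4a had 25, 15 and 22 counts in the F10-deleted samples, against 26, 24 and 32 in the F10-intact samples, far below the 576 to 716 counts of C4b.

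The convertase proteases are C2, which pairs with C4b, and factor B, which pairs with C3. Their genes lie 85 bases apart on the same strand of chromosome 17, Cfb at 34856374 to 34862518 and C2 at 34862604 to 34898265. GENCODE M21 also holds a gene model on that strand, Gm20547, that covers 79.5% of the exon bases of Cfb and 42.8% of those of C2. No source used here states how reads in those exons were counted, and the levels of both genes are uncertain. C2 (ENSMUSG00000024371) had 8.09, 8.71 and 13.0 CPM in F10-deleted samples 1, 3 and 4, against 11.6, 9.0 and 4.98 CPM in F10-intact samples 1, 3 and 4. The groups overlapped, with F10-intact sample 4 the lowest and F10-deleted sample 4 the highest. Its log2 fold change was 0.22 ± 0.35 (SE, edgeR adjusted p = 0.885) and -0.06 without F10-intact sample 4.

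Cfb (ENSMUSG00000090231) fell below the filter. It had 4, 14 and 6 counts in the F10-deleted samples, against 3 in each of the F10-intact samples. The sums of 24 counts in F10-deleted and 9 counts in F10-intact tumours gave a ratio of 2.59 after scaling to the TMM library totals (95% counting interval 1.16 to 6.34, which covers counting error only), and F10-deleted sample 3 held 14 of the 24. In CPM its groups did not overlap, but the lowest F10-deleted sample had only 4 counts, against 3 in each F10-intact sample. Of all genes tested, 8.99% were higher in F10-deleted tumours without overlap. In the edgeR fit without a filter its log2 fold change was 1.32 ± 0.64 (SE, adjusted p = 0.57).

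The C1 proteases had group means that differed by less than the spread between samples. C1ra (ENSMUSG00000055172, chromosome 6, 124512405 to 124523443, plus strand) had 45.6, 32.4 and 35.4 CPM in F10-deleted samples 1, 3 and 4, against 39.3, 40.5 and 33.2 CPM in F10-intact samples 1, 3 and 4. C1s1 (ENSMUSG00000038521, chromosome 6, 124530345 to 124542359, minus strand) had 108.1, 79.8 and 94.6 CPM in the F10-deleted samples, against 92.4, 99.7 and 67.1 CPM in the F10-intact samples. For both genes F10-deleted sample 1 was the highest, and the groups overlapped. The log2 fold changes were 0.003 ± 0.174 for C1ra (SE, 95% interval -0.40 to 0.41, edgeR adjusted p = 0.997) and 0.12 ± 0.19 for C1s1 (SE, 95% interval -0.31 to 0.56, edgeR adjusted p = 0.874). Of the exon bases of C1s1, 18.4% overlap an antisense gene model, Gm16567, and without a stated strand setting such reads cannot be told apart. Leaving out F10-deleted sample 1 put C1ra at -0.12, and leaving out F10-deleted sample 3 put it at 0.13.

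The same stretch of chromosome 6 holds 3 relatives of these proteases, in the order C1rl, C1ra, C1s1, C1rb and C1s2, and these varied more among samples than C1ra and C1s1 did. C1rb, a copy of C1ra, had 497, 14 and 151 counts in F10-deleted samples 1, 3 and 4, against 427, 436 and 0 counts in F10-intact samples 1, 3 and 4. C1s2, a copy of C1s1, had 419, 33 and 159 counts in the F10-deleted samples, against 294, 384 and 14 in the F10-intact samples. C1rl, a C1r-like protease gene, had 220, 44 and 109 counts in the F10-deleted samples, against 287, 239 and 29 in the F10-intact samples. All 3 were high in the same samples, F10-deleted 1 and F10-intact 1 and 3, and lowest in F10-intact 4 and F10-deleted 3, so the pattern ran across the groups. Between the lowest and the highest sample, C1s2 differed 30.3-fold and C1rl 8.81-fold in CPM, while C1ra differed 1.41-fold and C1s1 1.61-fold.

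Those samples bear on C1ra as well. Of the 120-base windows of the C1ra transcript, 30.9% also occur in C1rb transcripts, and 5.02% of those of C1s1 occur in C1s2. F10-intact sample 4, with 0 counts of C1rb, still had 320 counts of C1ra, so C1ra was counted where C1rb was not. The 3 samples with the most C1rb, at 37.4 to 52.2 CPM, were also the 3 with the most C1ra, at 39.3 to 45.6 CPM, against 32.4 to 35.4 CPM in the others. The part of shared reads in this was not tested. Between the groups, the edgeR log2 fold changes were -0.23 ± 1.54 for C1rb, -0.04 ± 1.18 for C1s2 and -0.48 ± 0.86 for C1rl (SE, adjusted p from 0.898 to 0.995).

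**Figure D2:**
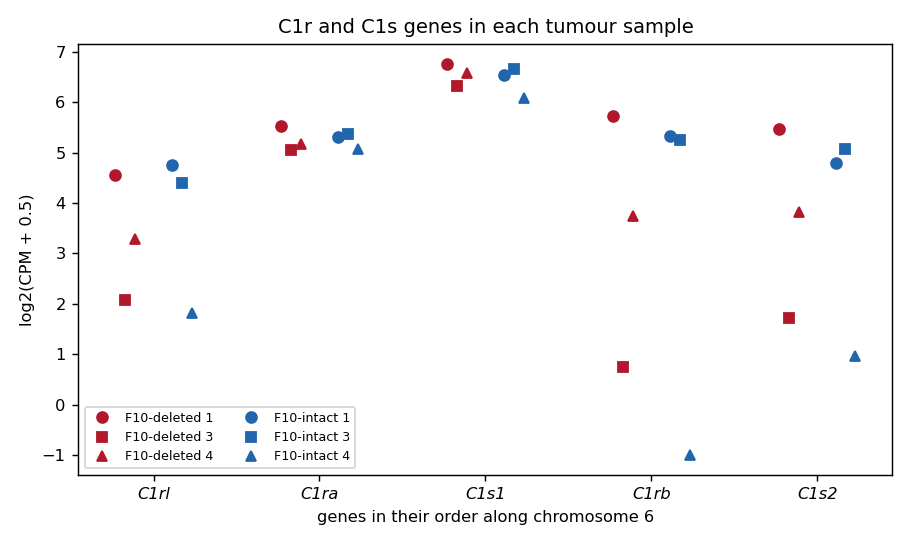
Level, as log2(CPM + 0.5), of 5 C1r and C1s genes in their order along chromosome 6, with F10-deleted samples in red, F10-intact samples in blue and symbols for the sample numbers. C1ra and C1s1 differ little among samples, while C1rl, C1rb and C1s2 are all low in F10-intact sample 4 and F10-deleted sample 3.

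Serping1 encodes C1 inhibitor, which also restrains contact-phase proteases of coagulation. Serping1 (ENSMUSG00000023224, chromosome 2, 84765387 to 84775444, minus strand) had 137.1, 125.6 and 115.6 CPM in F10-deleted samples 1, 3 and 4, against 142.9, 133.4 and 110.9 CPM in F10-intact samples 1, 3 and 4. In both groups sample 1 was the highest and sample 4 the lowest. The means were 126.1 ± 10.8 CPM in F10-deleted and 129.1 ± 16.4 CPM in F10-intact tumours (SD, n = 3 each). This gave -0.03 ± 0.14 on the log2 scale (SE, 95% interval -0.36 to 0.30, edgeR adjusted p = 0.962). It was 0.07 without F10-intact sample 1.

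Cd55, or decay-accelerating factor, protects cells from complement on their own surface. Cd55 (ENSMUSG00000026399, chromosome 1, 130439027 to 130462744, minus strand) had 75.7, 83.2 and 78.1 CPM in F10-deleted samples 1, 3 and 4, against 60.8, 106.0 and 166.7 CPM in F10-intact samples 1, 3 and 4. The F10-deleted samples lay close together, inside the range of the F10-intact samples. The SD was 3.80 CPM in the F10-deleted group and 53.1 CPM in the F10-intact group (n = 3 each). Whether the spread differs between the groups was not tested. The log2 fold change was -0.49 ± 0.32 (SE, 95% interval -1.25 to 0.27, edgeR adjusted p = 0.646). Leaving out F10-intact sample 4 brought it to -0.08, and leaving out F10-intact sample 1 brought it to -0.76, with an edgeR adjusted p of 0.16. A copy, Cd55b, shares 5.26% of the 120-base windows of the Cd55 transcript and was not analysed here.

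Properdin, the product of Cfp, is made largely by myeloid cells and stabilises the alternative-pathway convertase. Cfp (ENSMUSG00000001128, chromosome X, 20925454 to 20931555, minus strand) had 22.3, 15.1 and 19.4 CPM in F10-deleted samples 1, 3 and 4, against 18.0, 19.8 and 22.9 CPM in F10-intact samples 1, 3 and 4. The groups overlapped, and the lowest value was F10-deleted sample 3. Its log2 fold change was -0.10 ± 0.20 (SE, 95% interval -0.55 to 0.36, edgeR adjusted p = 0.91). The C1q chains, which macrophages make, were at -0.31 for C1qa, -0.14 for C1qb and -0.31 for C1qc (edgeR adjusted p from 0.627 to 0.777), and their groups overlapped.

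**Figure D3:**
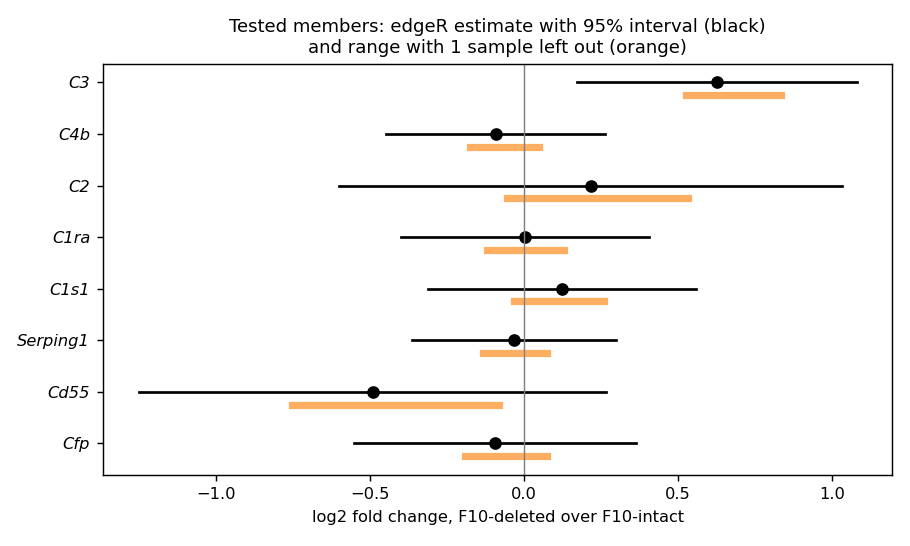
Log2 fold change of the 8 tested complement genes, F10-deleted over F10-intact, with the edgeR estimate and 95% interval in black and the range of estimates with 1 sample left out in orange. The interval of C3 lies above 0 and the other 7 span 0.

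Set per kilobase of exon, so that genes can be compared, Serping1 had the highest level in both groups. It averaged 54.2 ± 4.62 CPM per kb in F10-deleted and 55.5 ± 7.04 CPM per kb in F10-intact tumours (SD, n = 3 each). C3 came next, with 43.4 ± 5.46 CPM per kb in F10-deleted and 28.1 ± 6.85 CPM per kb in F10-intact tumours. C1s1 followed with 30.1 ± 4.52 CPM per kb in F10-deleted and 27.6 ± 5.47 CPM per kb in F10-intact tumours. Cd55, C1ra, Cfp and C4b followed at medians over the 6 samples of 16.6, 12.5, 11.3 and 10.5 CPM per kb, then C2 at 2.29 and Cfb at 0.129. Each of the genes from C3 to C4b overlapped with its neighbour in this order across the 6 samples. Serping1 did not overlap with C3, C4b did not overlap with C2, and C2 did not overlap with Cfb. The levels of C2 and Cfb carry the uncertainty of their shared exons. Exon length here counts all annotated exon bases of a gene and can exceed its longest coding transcript. For Cd55 these were 4853 against 2533 bases, and for C2 3872 against 2641. An order by transcript length was not made.

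The 8 genes differed in their profiles over the 6 samples. With each profile centred and scaled to unit SD, the likeness of a pair was measured as the root mean square difference over the 6 samples, among 13906 other genes with a mean of at least 1 CPM. The closest pair was C1ra and C1s1, at 0.503, where C1s1 ranked 156 among the genes most like C1ra. For C3 the nearest other complement gene of the set was Cfp, at rank 4178. The 3 genes with profiles most like C3 were Cstb, a cathepsin inhibitor, at 0.106, Casp1, the inflammasome caspase, at 0.119, and Stac3, a muscle protein, at 0.183. For Cd55 they were Bzw2, Esrrg and Usp54, at 0.0677 to 0.0881. With 6 samples, many genes come close by this measure.

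The rest of the pathway was read from a list of 50 other complement genes, of which 40 were in the table and 32 passed the filter. With edgeR 0 of the 32 passed at an adjusted p under 0.05, where 0.0439% of all genes did. DESeq2 also called 0 of the 32 (3.05% of all genes), as did limma-voom (0.0125%). At an unadjusted p under 0.05 there were 2, both higher in F10-deleted tumours, where 6.15% of all genes were. The log2 fold changes were above 0 for 10 and below 0 for 22 (52.7% of all genes tested were below 0), with a median of -0.15. The 2 genes were Hc, which encodes C5, and Cd93, a receptor of endothelium and myeloid cells once described as a C1q receptor. Hc had 14, 23 and 12 counts in F10-deleted samples, against 7, 3 and 1 in F10-intact samples, which edgeR put at a log2 difference of 2.09 ± 0.62 (SE, adjusted p = 0.281). Cd93 had 11.1, 11.9 and 13.2 CPM in F10-deleted samples, against 8.95, 6.86 and 6.95 CPM in F10-intact samples, which edgeR put at a log2 difference of 0.67 ± 0.22 (SE, adjusted p = 0.318). For both, the groups did not overlap, with F10-deleted higher, as for 8.99% of all genes tested.

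By role, 8 of 9 tested initiation genes, 5 of 8 receptor genes and 6 of 10 regulator genes were below 0, where 52.7% of all genes were. The 4 tested core and alternative-pathway genes had 2 above and 2 below 0, with a median of 0.83. C3ar1, the receptor of the C3a fragment, was at -0.43 ± 0.25 (SE, edgeR adjusted p = 0.593). Clu, or clusterin, an abundant secreted chaperone that also blocks the terminal complex, had 6950, 6805 and 7372 CPM in F10-deleted samples, against 11460, 10380 and 4634 CPM in F10-intact samples. F10-intact sample 4 was the lowest of the 6 and the other F10-intact samples the highest. Of 6 terminal components, C8g alone was tested, at -0.47 ± 0.38 (SE, edgeR adjusted p = 0.72). C8b, below the filter, had 1, 5 and 8 counts in F10-deleted samples, against 9, 14 and 17 in F10-intact samples. Its groups did not overlap, where 16.7% of all genes tested did not in either direction. In the unfiltered edgeR fit it was at -1.57 ± 0.64 (SE, adjusted p = 0.479). Cfd, the factor D protease also called adipsin and a product of fat cells, had 77.5, 7.28 and 58.8 CPM in F10-deleted samples, against 19.1, 7.03 and 1.24 CPM in F10-intact samples, which edgeR put at a log2 difference of 2.38 ± 1.08 (SE, adjusted p = 0.501). Cr2, the receptor of C3d, had 56.2, 9.73 and 18.5 CPM in F10-deleted samples, against 108.8, 74.7 and 1.56 CPM in F10-intact samples, again lowest in F10-intact sample 4.

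**Figure D4:**
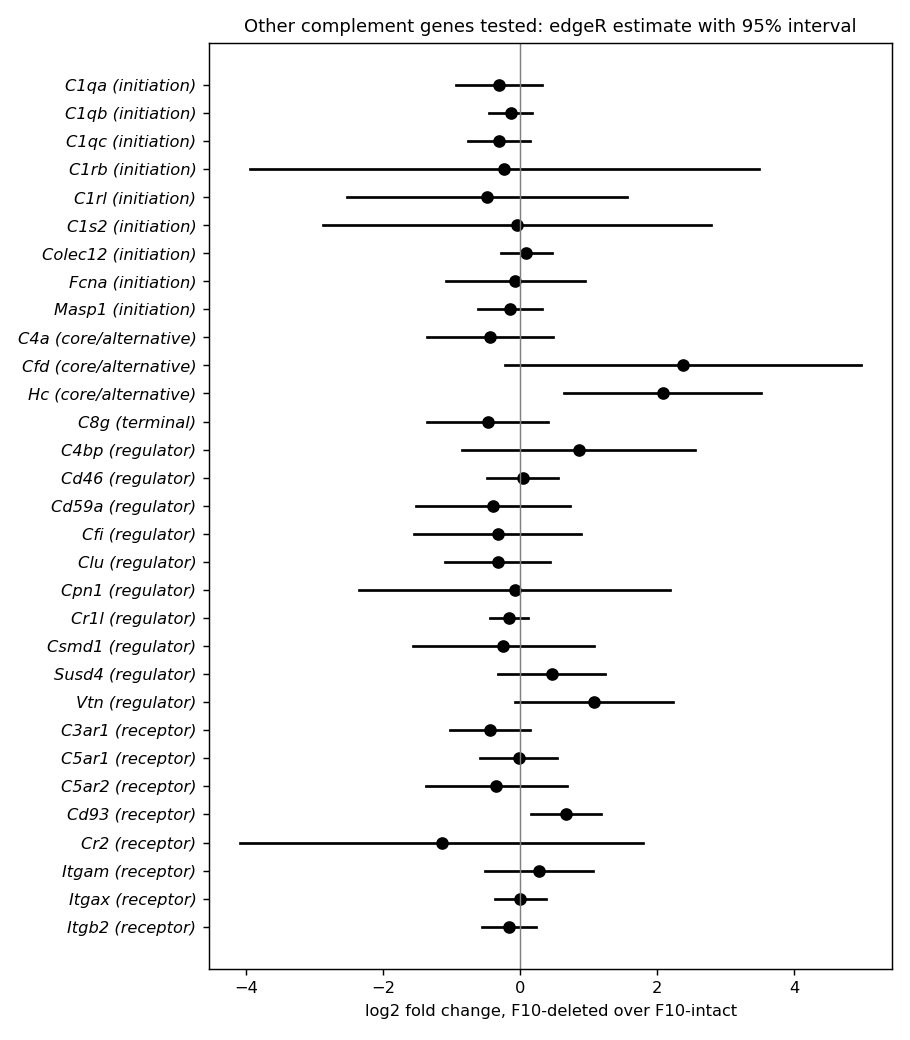
Log2 fold change, F10-deleted over F10-intact, of 31 of the 32 other complement genes tested, grouped by role, with the edgeR estimate and 95% interval. The intervals of Hc and Cd93 lie above 0, and those of C1rb, C1s2, Cr2 and Cfd are the widest.

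Marker lists of the cells that could supply this RNA were summed per sample. Over all genes tested, edgeR called 0.0439%, and 47.3% had a log2 fold change above 0. The epithelial list held 7197 to 8322 CPM in F10-deleted and 7732 to 8374 CPM in F10-intact samples, with 0 of 8 genes called. These are general epithelial genes and do not tell prostate from other epithelia. The macrophage list held 522.8 to 594.6 CPM in F10-deleted and 397.3 to 677.9 CPM in F10-intact samples, with 0 of 9 tested genes called. Of these 9, 4 were above 0 and 5 below. Part of the sum was Lyz2, the myeloid lysozyme gene whose locus also drives LysM-Cre. Lyz2 had 255.5, 210.3 and 273.7 CPM in F10-deleted samples, against 101.1, 145.7 and 313.0 CPM in F10-intact samples. Any effect of LysM-Cre on Lyz2 was not tested. The fibroblast list held 1580 to 1636 CPM in F10-deleted and 1365 to 1604 CPM in F10-intact samples, most of it from Dcn, a small proteoglycan, with 8 of 10 genes above 0 and 0 called. Its collagen genes stood apart: Col1a1 had 88.6, 85.4 and 65.2 CPM in F10-deleted samples, against 41.7, 31.1 and 30.6 CPM in F10-intact samples. The log2 fold changes were 1.21 for Col1a1, 0.89 for Col1a2 and 0.88 for Col3a1 (edgeR adjusted p from 0.0846 to 0.138). These 3 were higher in F10-deleted tumours without overlap, as were 8.99% of all genes tested. The endothelial list, beside Cd93, held 59.1 to 92.4 CPM in F10-deleted and 31.9 to 71.7 CPM in F10-intact samples, with 7 of 8 genes above 0. The neutrophil list, beside Cfp, held 90.0 to 120.5 CPM in F10-deleted and 113.0 to 239.2 CPM in F10-intact samples, with all 5 tested genes below 0, 0 called, and Ly6g at 0 to 6 counts. The adipocyte list, beside Cfd and C3, held 248.1 to 358.6 CPM in F10-deleted and 81.3 to 115.3 CPM in F10-intact samples, with all 9 tested genes above 0, 1 called and the marker Lep at 0 to 6 counts. Of these 9, only 3 were higher in F10-deleted tumours without overlap, as were 8.99% of all genes tested. Much of the 248.1 CPM of F10-deleted sample 3 came from Fabp4 (115.0 CPM) and Pparg (61.1 CPM). Lpl was at its lowest of all samples there, at 42.7 CPM. The skeletal muscle list held 743.8 to 1822 CPM in F10-deleted and 13.5 to 110.5 CPM in F10-intact samples, with all 10 genes above 0 and 1 called. The part of these cells in the values of C3, Cd93, Cfd, Cfp and the other complement genes was not tested. The B and plasma cell list held 14.5 to 26.4 CPM in F10-deleted and 16.7 to 44.6 CPM in F10-intact samples, with 0 of 5 tested genes called. The hepatocyte list, of which 4 of 10 genes were in the table, held 4.94 to 15.6 CPM in F10-deleted and 3.94 to 4.97 CPM in F10-intact samples. The highest sum was that of F10-deleted sample 3, where Ttr alone had 12.7 CPM. Ttr had 1.47 and 1.62 CPM in F10-deleted samples 1 and 4, and 0.207 to 1.97 CPM in F10-intact samples. Alb, the albumin gene, had 3, 6 and 2 counts in F10-deleted and 1, 2 and 4 counts in F10-intact samples.

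C3 is known as a target of inflammatory signals, so 2 further lists were set beside it. Of 16 genes induced by interferon gamma, all 16 were above 0, where 47.3% of all genes tested were. Of these 16, 0 were called (0.0439% of all genes), and their median log2 fold change was 0.45. The sums ran from 800.8 to 1410 CPM in F10-deleted and from 789.1 to 887.5 CPM in F10-intact samples. The sums were 1016, 800.8 and 1410 CPM in F10-deleted samples 1, 3 and 4, against 887.5, 848.6 and 789.1 CPM in F10-intact samples 1, 3 and 4. Within the F10-deleted group the sums and C3 were both lowest in sample 3. The sums were highest in sample 4, while C3 was nearly equal in samples 1 and 4, at 239.3 and 239.7 CPM. Within the F10-intact group the sums were highest in sample 1, where C3 was lowest. Of 12 tested NF-kB and acute-phase genes, 9 were below 0, where 52.7% of all genes were, and 0 were called. Among them Lcn2, an iron-chelator carrier of the acute phase, had 314.6, 217.8 and 336.9 CPM in F10-deleted samples, against 438.9, 489.3 and 689.4 CPM in F10-intact samples, which edgeR put at a log2 difference of -0.90 ± 0.23 (SE, adjusted p = 0.228). Saa3, a serum amyloid gene, had 3.46, 2.54 and 21.2 CPM in F10-deleted samples, against 19.4, 149.0 and 201.6 CPM in F10-intact samples (edgeR adjusted p = 0.309). Within the F10-intact group, C3, Lcn2 and Saa3 were all lowest in sample 1 and highest in sample 4. In the F10-deleted group Lcn2 and Saa3 were, like C3, lowest in sample 3, and both were highest in sample 4. The other 3 genes of the list were above 0, among them Icam1, an adhesion molecule, with 99.8, 99.8 and 98.3 CPM in F10-deleted samples, against 76.1, 76.2 and 91.9 CPM in F10-intact samples (edgeR adjusted p = 0.469). Its groups, like those of C3, did not overlap, with F10-deleted higher, as for 8.99% of all genes tested. Whether either list bears on C3 was not tested.

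**Figure D5:**
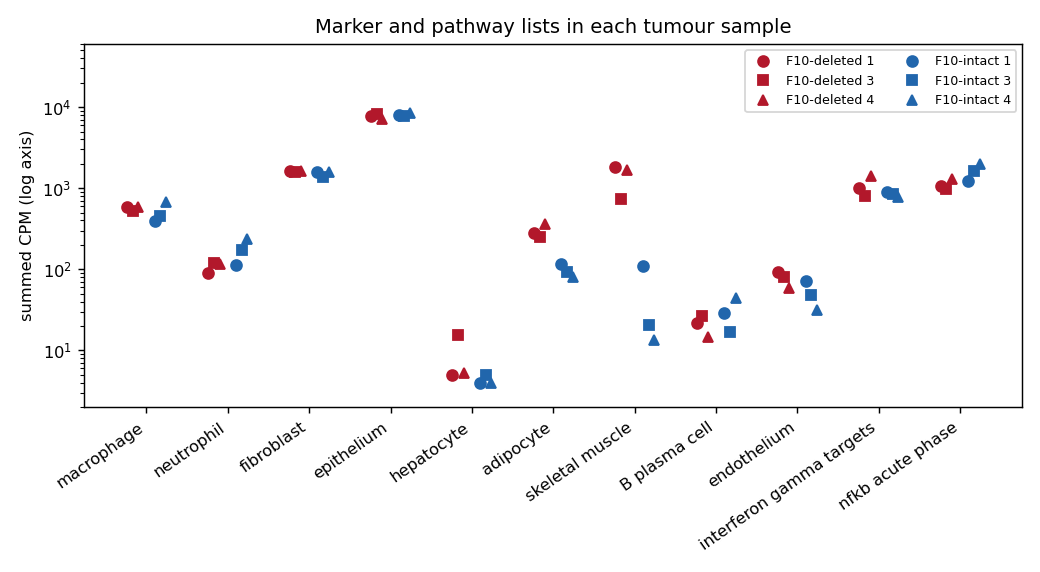
Summed CPM, on a log axis, of 9 cell type marker lists and 2 pathway lists in each sample, with F10-deleted in red, F10-intact in blue and symbols for the sample numbers. The sums of the muscle and adipocyte lists are apart between the groups, although only 3 of the 9 tested adipocyte genes are. The sums of the epithelial, macrophage and fibroblast lists overlap, although 3 collagen genes of the fibroblast list do not.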

How the data were processed

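The deposited file is 1 matrix of raw counts, with Ensembl genes in rows and the 6 samples in columns. Stranded poly-A libraries were sequenced in single-end mode to 120 bases, per the labels' protocols. Per the submitters' processing notes, STAR 2.7.10a and the build GRCm38 were used and DESeq2 is named with no role; which program counted reads, with which strand setting and annotation, is not given in the sources used here. Symbols, exon lengths and positions came from GENCODE M21 (GRCm38), which matched 21605 identifiers.

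The main test was edgeR 4.0.16 (quasi-likelihood, robust, TMM, filterByExpr at a minimum count of 10, R 4.3.3) over 15963 genes, with Benjamini-Hochberg adjustment and a threshold of 0.05. DESeq2 1.42.0 and limma-voom (limma 3.58.1) were run on the same genes, along with other scalings, filters, the replicate block and each sample left out. Cfb was taken from the fit without a filter. The tests were checked on simulated data. Log2 values use an offset of 0.5 CPM. Same-numbered samples deviated together (correlations across genes of 0.372, 0.14 and 0.186 for numbers 1, 3 and 4), all above 0.1, so a blocked fit was run; no label says what the number marks. Same-group samples differed beyond sampling noise (chi-square per degree of freedom 22.3 to 77.5).

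The members and gene lists were chosen with earlier results of these data known. Named beyond the 9 members were gene copies, C1q chains, up to 4 genes per complement list by smallest p, up to 3 per marker list by level, and nearest profiles. Alb, Lep, Ly6g, Saa3, Icam1, Col1a1, C8b, C1rl and Clu were chosen after their values were seen. Counting intervals cover counting error only. A few items are not reported here.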

Additional observations from a re-analysis of the deposited data

How the results depend on the processing

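No complement gene, in the set or in the wider list, was called under any of the alternatives run. The median log2 fold change of the 8 members stayed between -0.0926 and 0.103 with 1 sample left out. Of the 8 tested members, 1 to 2 had groups without overlap with 1 sample left out (C3, and Cd55 without F10-intact sample 1), where 21.3% to 31.0% of all genes did. C3 and Cd55 kept their direction under all alternatives. Signs turned for 6 genes, all with an interval that spans 0 in the main test. C1ra was at -0.0166 with limma-voom and -0.0058 with the replicate block. With 1 sample left out, log2 fold changes ranged over -0.12 to 0.131 for C1ra, -0.032 to 0.258 for C1s1, -0.177 to 0.0485 for C4b, -0.0554 to 0.531 for C2, -0.134 to 0.0742 for Serping1 and -0.191 to 0.0742 for Cfp. The lowest of C2, C1s1 and Serping1 came without F10-intact sample 4, and the highest of C1ra, C1s1, C4b and Cfp without F10-deleted sample 3. Over all genes the calls numbered 7 in the main test, 2 with at least 1 CPM in 3 samples, 487 with DESeq2 (355 higher, 132 lower), 2 with limma-voom, 3 with a non-robust fit, 2 with the replicate block, 85 at an adjusted p under 0.1, and 0 to 72 with 1 sample left out; the cause was not tested. The block changed no member's call. At this depth, Cfb and 3 terminal components in the table fell below the filter.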
